A study of Homo sapiens with 5 samples.

Results

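The 8 genes OPRK1, MET, DDC, UGT2B17, UGT2B15, UGT2B28, AKR1C3 and CDH2 form a set labelled as androgen-repressed, and what is described here is the binding of the zinc finger factor ZBTB7A around them in VCaP prostate cancer cells. A peak was taken as lying at a gene when its summit was within 50 kb of the gene's span on the hg19 build (the rule itself uses positions only). By that rule 113 peaks of 196770 were found, 15 of 34120 with DHT, 83 of 124868 in full serum and 15 of 37782 with vehicle. VCaP is an established line that expresses the androgen receptor. Binding was measured by chromatin immunoprecipitation and sequencing (ChIP-seq), with 5 libraries represented by 3 peak lists. The DHT list stands for 2 libraries of cells given 10 nM of dihydrotestosterone for 4 hours while kept in 5% hormone-depleted serum. The FBS list stands for 1 library of cells in full serum, which routine culture used at 10%. These cells were read as free of added DHT from the series text, although their label repeats the treatment text of the others. The CSS list stands for 2 libraries of cells given vehicle for 4 hours, also in 5% hormone-depleted serum, so FBS differs from the others in serum concentration too. All are the same line, with no genetic change given in the labels. The numbering in the titles does not say whether the 2 libraries of DHT and of CSS are biological replicates or sequencing lanes. With 1 list for each condition there is no measure of replicate spread, and conditions were not tested against each other. Sequencing depth is unknown because read totals are not in the lists, and list length can follow depth as well as binding. Expression was not measured in these files, so whether DHT lowered these genes in the cells used was not checked here.

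The androgen receptor is a transcription factor that binds DNA when it holds testosterone or DHT. It raises many genes in prostate cells and lowers a smaller set, in part by bringing the histone demethylase LSD1 to their enhancers, and genes of that set can come back up when androgen is withdrawn. ZBTB7A, also known as Pokemon or LRF, pairs zinc fingers that read GC-rich DNA with a BTB domain that recruits corepressors. The members have separate roles. OPRK1 is the kappa opioid receptor and MET the receptor tyrosine kinase for hepatocyte growth factor. DDC is the decarboxylase that makes dopamine and serotonin. UGT2B17, UGT2B15 and UGT2B28 attach glucuronic acid to androgens and so inactivate them, while AKR1C3 reduces androstenedione to testosterone. CDH2 is N-cadherin, an adhesion protein of mesenchymal and neural cells.

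ZBTB7A peaks stood at the starts of OPRK1, MET and CDH2 in each of the 3 lists, and at the starts of UGT2B17 and UGT2B15 in full serum only. No list had a peak within 5 kb of the span start of DDC, UGT2B28 or AKR1C3. Other annotated starts were not searched. In all, 3 of 8 genes had a summit within 5 kb of the 5' end in DHT, 5 of 8 in FBS and 3 of 8 in CSS. Of windows of 10 kb tiled over the chromosomes, 9.51% held a DHT summit, 29.5% an FBS summit and 10.4% a CSS summit. Those windows are not gene starts, and the share over all gene starts was not computed because no hg19 annotation was used. Starts were taken from the ends of the spans, which are given to 1 kb, so each distance from a start carries that uncertainty. Where a −log10 q of at least 5 was required, no list kept a peak at the CDH2 start and the CSS list kept none at the MET start. The other peaks with DHT or vehicle were few and lay in the gene flanks, in the body of MET or OPRK1, or near the 3' end of DDC.

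**Figure D1:**
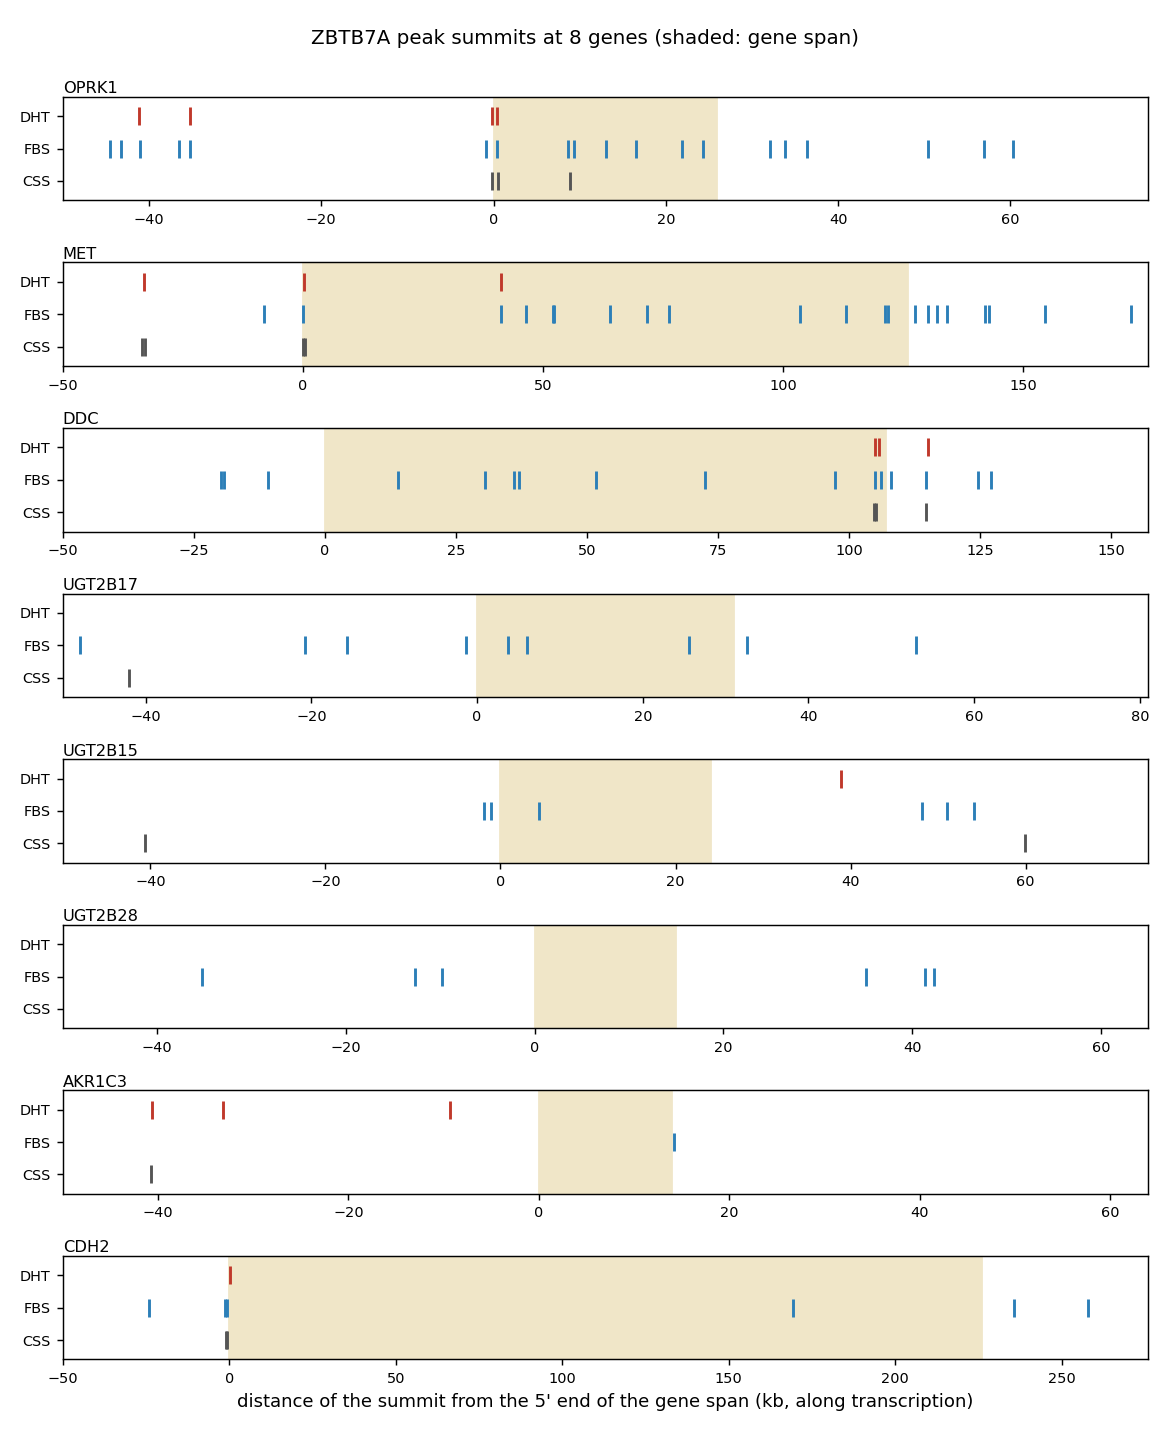
Position of every ZBTB7A peak summit along the 8 gene regions, in kb from the 5' end of the span in the direction of transcription, with 1 row of ticks for each list (DHT, FBS, CSS) and the span shaded. OPRK1 and MET carry 19 and 21 FBS summits, UGT2B28 has summits in FBS only, and AKR1C3 has 3 DHT, 1 FBS and 1 CSS summits.

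RefSeq promoter windows, from 250 bases before to 50 after an annotated start on GRCh38.p14, were found for MET, DDC, UGT2B15, AKR1C3 and CDH2, 5 of the 8 genes. Shown here are MET and CDH2, whose starts carried peaks in each list, and UGT2B15 and AKR1C3, with none at the span start with DHT or vehicle. UGT2B15 did have 3 FBS peaks within 5 kb of its start, and the CDH2 peaks all had a −log10 q below 5. AKR1C3 has another annotated start, at which peaks were not searched. Capitals mark the word GACCC or its reverse complement GGGTC, the core of published ZBTB7A sites, and AGAACA, the hexamer of androgen receptor elements (reverse complement TGTTCT). The windows are on GRCh38 and the peaks on hg19, so bases were not matched to peak positions.
MET promoter, chr7:116671946-116672245, plus strand: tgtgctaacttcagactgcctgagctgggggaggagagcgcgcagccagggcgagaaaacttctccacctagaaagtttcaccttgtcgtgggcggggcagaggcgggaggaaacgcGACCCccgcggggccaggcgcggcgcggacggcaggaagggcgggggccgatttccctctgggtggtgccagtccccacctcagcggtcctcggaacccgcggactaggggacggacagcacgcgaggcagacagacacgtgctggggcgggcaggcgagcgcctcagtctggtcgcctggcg
CDH2 promoter, chr18:28177081-28177380, minus strand: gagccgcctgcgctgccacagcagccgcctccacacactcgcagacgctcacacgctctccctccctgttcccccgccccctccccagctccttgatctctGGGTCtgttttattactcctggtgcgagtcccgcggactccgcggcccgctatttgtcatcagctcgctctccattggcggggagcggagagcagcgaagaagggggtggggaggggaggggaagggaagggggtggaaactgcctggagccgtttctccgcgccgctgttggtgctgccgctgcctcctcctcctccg
UGT2B15 promoter, chr4:68670603-68670902, minus strand: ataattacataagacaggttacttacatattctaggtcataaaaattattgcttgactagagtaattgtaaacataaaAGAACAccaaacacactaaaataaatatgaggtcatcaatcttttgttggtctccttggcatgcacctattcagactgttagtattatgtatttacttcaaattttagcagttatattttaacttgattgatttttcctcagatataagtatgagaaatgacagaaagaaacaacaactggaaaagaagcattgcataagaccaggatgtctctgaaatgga
AKR1C3 promoter at the start nearer the 3' end, chr10:5094164-5094463, plus strand: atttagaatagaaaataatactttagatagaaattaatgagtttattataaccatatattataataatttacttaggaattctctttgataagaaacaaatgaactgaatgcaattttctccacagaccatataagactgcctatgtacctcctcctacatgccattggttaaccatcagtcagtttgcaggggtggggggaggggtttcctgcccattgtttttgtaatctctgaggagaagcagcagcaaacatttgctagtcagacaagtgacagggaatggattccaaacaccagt
The MET window held 30 CpG dinucleotides with a GC content of 69.3%, and the CDH2 window 23 CpG with 67.0% GC. The UGT2B15 window had 0 CpG and 30.3% GC, and the AKR1C3 window 0 CpG and 36.7% GC. Over 35116 promoter windows of the same length the medians were 14 CpG and 58.7% GC. Of the windows shown, those of MET and CDH2 lay above the middle and those of UGT2B15 and AKR1C3 below it. DDC has 2 annotated starts, whose windows held 3 CpG each, with 44.3% GC at the upstream start and 57.3% GC at the downstream one. GACCC, searched on both strands, was present at 1 site in the MET window and at 1 site in the CDH2 window. It was absent from the windows shown for UGT2B15 and AKR1C3 and from both DDC windows. AGAACA was found at 1 site in the UGT2B15 window and in no other window of these genes. GACCC occurs in 47.6% of all windows and AGAACA in 14.8%, so a match in these few windows is a description only. The second annotated windows of CDH2 and AKR1C3 held neither word. That of CDH2 had 4 CpG and 40.7% GC, below both medians, and that of AKR1C3 had 0 CpG and 33.7% GC.

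At OPRK1 the start carried a pair of peaks with DHT and with vehicle and a broad peak in full serum. With DHT the pair lay at chr8:54163288-54163754 and chr8:54164111-54164455, each with a −log10 q of 5.46 and a fold enrichment of 5.88. In full serum a peak of 1118 bp at chr8:54163012-54164129 spanned the gap, with a −log10 q of 10.06 and a fold enrichment of 5.35. The fold enrichment and q-value of a peak are the authors' and rank it within its own list only. With vehicle the pair had −log10 q values of 6.39 at chr8:54163221-54163819 and 8.36 at chr8:54164026-54164496. Each DHT peak of the pair overlapped a CSS peak and the FBS peak. The DHT pair stood at percentile 53.3 of its list by q-value, the FBS peak at 95.2, and the CSS pair at 66.4 and 78.9. A weaker FBS peak lay 0.9 kb upstream of the start, at a −log10 q of 2.54.

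With every called peak counted, the OPRK1 region was where full serum had its densest cover. There were 19 FBS peaks in 126 kb, those at the start included, against 4 with DHT and 3 with vehicle. The 19 had a median −log10 q of 3.52 and a median percentile of 25.7 in their list. At a −log10 q of at least 5 there remained 6 FBS, 2 DHT and 3 CSS peaks. When each list was cut to its 34120 strongest peaks, 5 FBS, 4 DHT and 3 CSS peaks remained. Among windows of that length tiled over the chromosomes, 1.47% held at least 19 FBS peaks, 9.26% at least 4 DHT peaks and 21.5% at least 3 CSS peaks. With a flank of 100 kb in place of 50 kb there were 28 FBS, 4 DHT and 3 CSS peaks, so FBS peaks continued beyond the 126 kb. Copy number in this part of chromosome 8 was not examined. The remaining DHT peaks lay 35.2 and 41.1 kb upstream, each with a −log10 q of 4.26. Both had an FBS partner and no CSS partner. The remaining CSS peak lay 8.9 kb inside the gene, with a −log10 q of 7.67, and overlapped an FBS peak but no DHT peak. The strongest FBS peak of the region, with a −log10 q of 11.1, was at chr8:54103515-54103831 beyond the 3' end and had no partner. The next after the start peak, at 6.71 and 6.40, also lay beyond the 3' end.

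**Figure D2:**
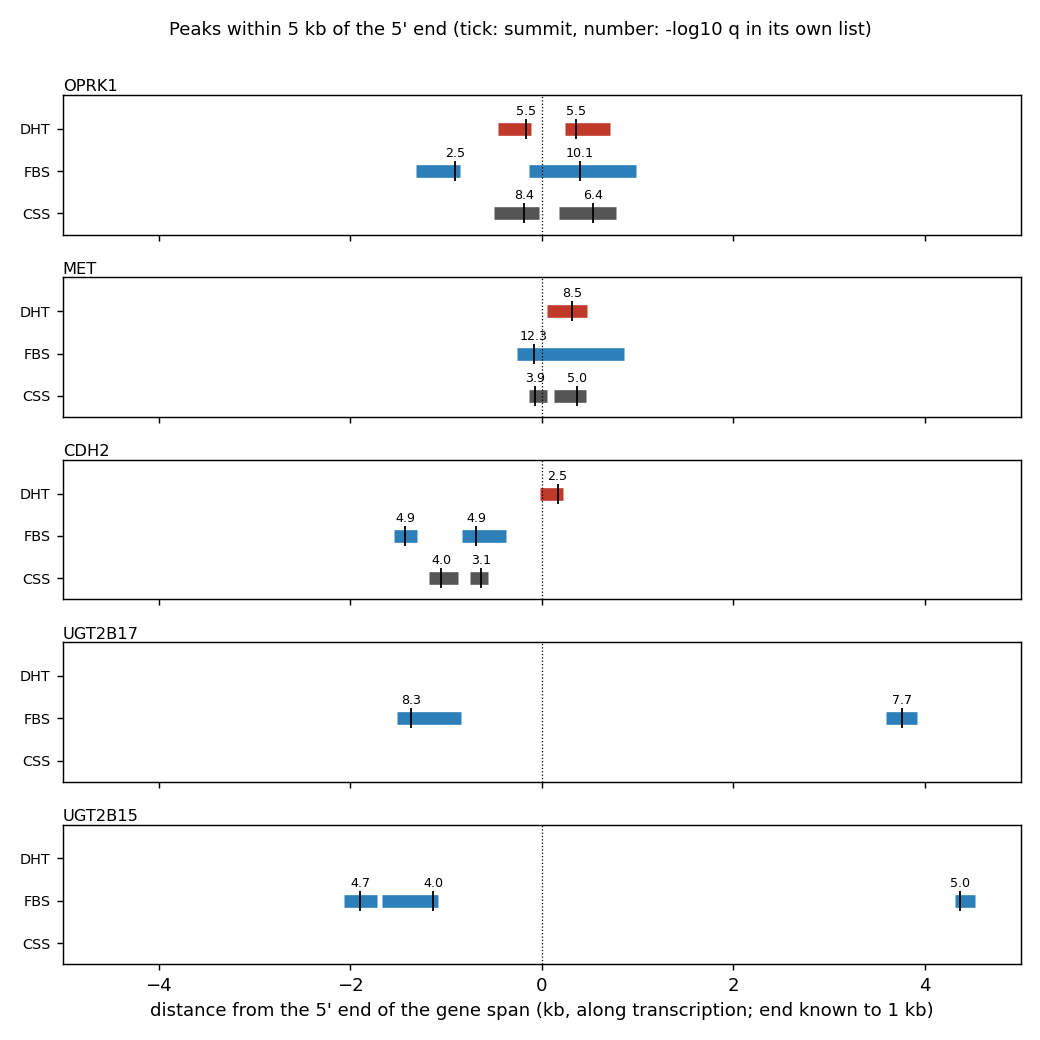
Peaks within 5 kb of the 5' end of 5 genes, drawn as bars at their width in kb from the end of the span, with a tick at the summit and the −log10 q above. OPRK1 and MET have overlapping bars in DHT, FBS and CSS, the CDH2 bar of DHT stands apart from those of FBS and CSS, and UGT2B17 and UGT2B15 have FBS bars only.

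MET also carried peaks at its start in every condition. With DHT a peak at chr7:116312056-116312472 had a −log10 q of 8.51 and a fold enrichment of 7.82, the highest values of the 15 DHT peaks at these genes. In full serum a peak of 1117 bp at chr7:116311740-116312856 had a −log10 q of 12.3 and a fold enrichment of 7.37. With vehicle there were 2 peaks, at chr7:116311865-116312055 with a −log10 q of 3.92 and at chr7:116312127-116312467 with 4.96. The MET start ranked at percentile 81.3 of the DHT list, at 97.3 of the FBS list, and at 33.9 and 51.1 of the CSS list. These percentiles come from lists of different length, and no change between conditions can be read from them.

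A second MET place with DHT and vehicle peaks lay upstream, where full serum had none. The DHT peak there, 33.1 kb before the start, had a −log10 q of 7.11. The CSS list had 2 peaks, at 32.9 and 33.6 kb before the start, with −log10 q values of 4.69 and 4.82, and the nearer to the start overlapped the DHT peak. Inside the gene, 41.3 kb from the start, a DHT peak with a −log10 q of 5.73 overlapped an FBS peak of 3.52 and had no CSS partner. Full serum added 19 places at which neither of the other lists had a peak, many in the later part of the gene and past its end. The region held 21 FBS peaks, against 9.02% of windows of its length with as many. Its 3 DHT and 4 CSS peaks were numbers reached by 39.1% and 29.3% of such windows. The strongest FBS peaks after the start had −log10 q values of 6.74 and 6.19 and had no partner.

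CDH2 had peaks at its start in each list, but not at the same bases. With DHT a weak peak lay at chr18:25756778-25757014, just inside the span, with a −log10 q of 2.55 and a fold enrichment of 4.18. In full serum peaks lay at chr18:25757371-25757831 and chr18:25758298-25758538, upstream of the start, each with a −log10 q of 4.92. With vehicle peaks lay at chr18:25757560-25757750 and chr18:25757870-25758181, with −log10 q values of 3.07 and 3.97. The DHT peak was 356 bp from the nearest FBS peak and 545 bp from the nearest CSS peak, while the FBS and CSS peaks nearest the start overlapped. The DHT peak stood at percentile 5.12 of its list, so it is among the weakest that were called. The span of 226 kb held no other peak with DHT or vehicle, and 1 FBS peak 169.2 kb into the gene with a −log10 q of 5.04. The strongest FBS peak of the region, at 5.87, lay beyond the 3' end. The 326 kb region held 1 DHT, 6 FBS and 2 CSS peaks, and 85.1%, 68.6% and 74.2% of windows of its length held at least as many.

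DDC showed another arrangement, with peaks of each list at and beyond the 3' end and none at the start. A stretch of 1507 bp near the 3' end, chr7:50526775-50528281, held 2 DHT, 2 FBS and 2 CSS peaks. The DHT peaks each had a −log10 q of 5.29, the FBS peaks 4.27 and 1.76, and the CSS peaks 9.84 and 5.36. The CSS value of 9.84 was the highest of the 15 CSS peaks at these genes. Past the 3' end by 7.6 kb, a second place at chr7:50517602-50518639 held an FBS peak with a −log10 q of 14.3, the highest of all FBS peaks at these genes. The DHT peak there had a −log10 q of 7.67 and the CSS peak 6.96, and both overlapped the FBS peak but not each other. FIGNL1 is the next protein-coding gene on that side of DDC in the RefSeq gene order on GRCh38, and the place was not assigned to either gene. The nearest peak to the DDC start was an FBS peak 10.9 kb upstream with a −log10 q of 4.26, while the nearest DHT and CSS peaks were 104.8 kb into the span. Other strong FBS peaks of the region had −log10 q values of 6.81 inside the gene and 5.87 past its 3' end. With 3 DHT, 16 FBS and 3 CSS peaks in 207 kb, the region was at numbers that 35.6%, 15.8% and 39.5% of windows of its length reach.

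The 3 UGT2B genes had nearly all of their peaks in full serum. Together their regions held 1 DHT, 20 FBS and 2 CSS peaks, and 0 of these overlapped a peak of another list. Most of them are FBS peaks, and in the whole lists a partner in either other list is present for 17.2% of FBS, 77.4% of DHT and 69.7% of CSS peaks. An FBS peak and a CSS peak lay within 50 kb of both UGT2B17 and UGT2B15, which are neighbours, and are counted once. These genes are close paralogs, and no source used here says how multiply mapped reads were treated, so the copy to which a read belongs is uncertain.

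UGT2B17 had 0 DHT, 9 FBS and 1 CSS peaks. Near its start there were FBS peaks 1.4 kb upstream, at chr4:69434842-69435516 with a −log10 q of 8.28, and 3.8 kb inside the gene, at 7.66. A further FBS peak 20.7 kb upstream had a −log10 q of 8.61 and stood at percentile 92.4 of its list. The CSS peak, 42.0 kb upstream, had a −log10 q of 2.36 and stood at percentile 3.72. At least 1 DHT peak is found in 64.1% of windows as long as the UGT2B17 region, so its lack here is shared by many windows. At least 9 FBS peaks are found in 22.6% of them and at least 1 CSS peak in 66.8%.

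UGT2B15 had 1 DHT, 6 FBS and 2 CSS peaks. The DHT peak, at chr4:69497107-69497307 past the 3' end, had a −log10 q of 6.92 and no partner. Full serum had peaks 1.1 and 1.9 kb upstream of the start, with −log10 q values of 4.03 and 4.72, and another 4.4 kb inside the gene at 5.04. The FBS peak with the highest value, 5.87, is the one shared with the UGT2B17 region. The CSS peaks were weak, at −log10 q values of 2.36 and 2.53. Windows of that length held at least as many peaks in 62.4% of cases for DHT, 37.9% for FBS and 38.7% for CSS.

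UGT2B28 was the only member with no peak within 50 kb with DHT or vehicle. The nearest DHT peak to its start was 150.7 kb away and the nearest CSS peak 150.6 kb away. Windows of its length hold at least 1 DHT peak in 60.3% of cases and at least 1 CSS peak in 63.3%. Full serum had 6 peaks there, a number reached by 35% of such windows, and 0 of them lay within the gene. The strongest, at chr4:70186967-70187496 past the 3' end, had a −log10 q of 13.0 and a fold enrichment of 8.60, the highest fold enrichment among the 83 FBS peaks at these genes. Further FBS peaks lay 12.7 and 35.3 kb upstream, with −log10 q values of 5.87 and 5.04.

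AKR1C3 was the only member with more peaks within 50 kb with DHT than in full serum. Its region held 3 DHT, 1 FBS and 1 CSS peaks, numbers that 16.4%, 81% and 63.1% of windows of its length reach. With a flank of 100 kb in place of 50 kb the counts were 3 with DHT, 4 in FBS and 2 in CSS, so the order of DHT and FBS turned, and with a flank of 10 kb DHT and FBS had 1 peak each. The DHT peaks lay 9.3, 33.2 and 40.7 kb upstream of the start, with −log10 q values of 2.26, 5.60 and 2.97. The farthest overlapped the CSS peak, which had a −log10 q of 3.93, and the other two had no partner. Only the peak at chr10:5102744-5102973 stood above the middle of the DHT list, at percentile 56.8. The FBS peak was weak, with a −log10 q of 2.84, and lay just past the 3' end. The RefSeq table lists a further AKR1C3 start upstream of the one used, so the peaks called upstream here may lie inside a longer form of the gene or near that start. That start was not placed on hg19, so distances from it were not computed.

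**Figure D3:**
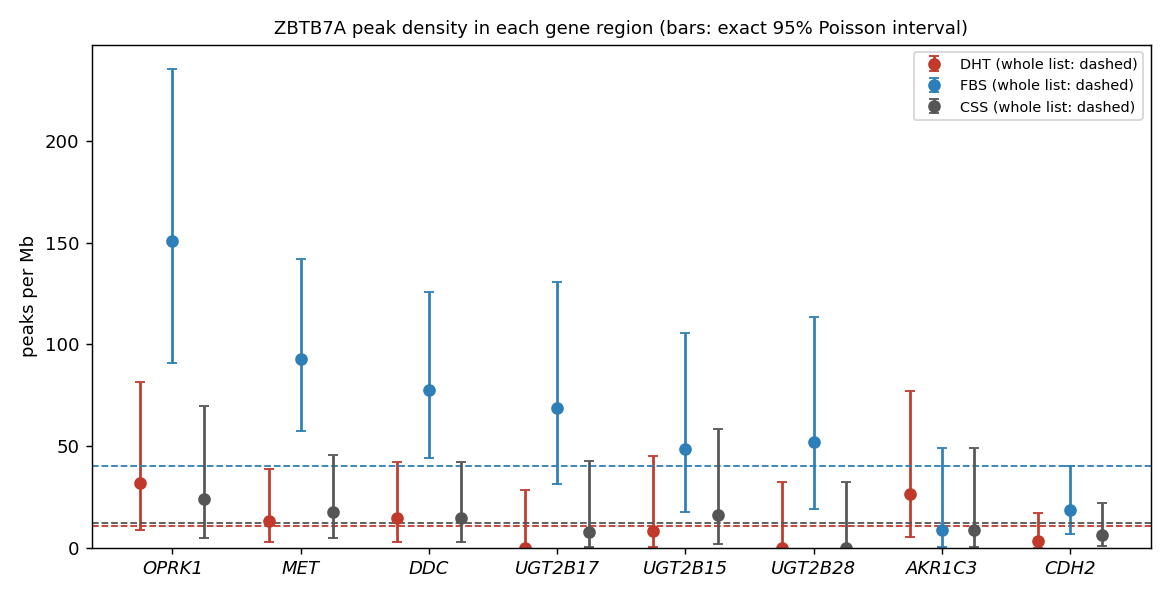
Peaks per Mb in each gene region for DHT, FBS and CSS, with exact 95% Poisson intervals and dashed lines at the density of each whole list. FBS density ran from 8.77 per Mb at AKR1C3 to 150.8 per Mb at OPRK1, around a whole-list value of 40.1.

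Over the 8 regions, which cover 1.35 Mb, peaks with DHT and with vehicle were about as dense as in the rest of the genome. Peaks in full serum were denser, most of all at OPRK1 and MET when every called peak was counted. Density was 11.1 per Mb in DHT (6.23 to 18.4), 61.6 in FBS (49.1 to 76.4) and 11.1 in CSS (6.23 to 18.4). The whole lists had 10.8, 40.1 and 11.9 peaks per Mb of the span covered on chromosomes 1 to 22, X and Y. Intervals are exact 95% Poisson intervals that treat neighbouring peaks as independent and cover counting error only. OPRK1 and MET together held 40 of the 83 FBS peaks. Without these 2 genes, an alternative chosen after seeing the data, the density was 8.04 per Mb in DHT (3.47 to 15.8), 43.2 in FBS (31.3 to 58.2) and 8.04 in CSS (3.47 to 15.8), so the FBS value was then close to that of its whole list. When each list was cut to its 34120 strongest peaks, 15 DHT, 23 FBS and 13 CSS peaks remained at these genes. The cut lists are equal in length, so full serum still had the most peaks here, and this was not tested. Of all FBS peaks at these genes 39.8% had a −log10 q of at least 5, against 40.9% of the whole FBS list. Of those 23 FBS peaks, 5 were at OPRK1, 7 at MET and 5 at UGT2B17, in regions of 126, 226 and 131 kb. At a −log10 q of at least 5, FBS had 6, 10 and 6 peaks there, so UGT2B17 had as many as OPRK1 and fewer than MET. With every peak counted, UGT2B17 had 9 FBS peaks, against 19 at OPRK1 and 21 at MET. Peaks lay at 6 of the 8 genes with DHT, at 8 in full serum and at 7 with vehicle. Of windows as long as these regions, 60.3 to 85.1% hold a DHT peak, 81 to 90.4% an FBS peak and 63.1 to 87% a CSS peak, so these counts are near the background. Inside the spans themselves were 6 DHT, 32 FBS and 5 CSS peaks, or 10.5, 56.2 and 8.79 per Mb.

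**Figure D4:**
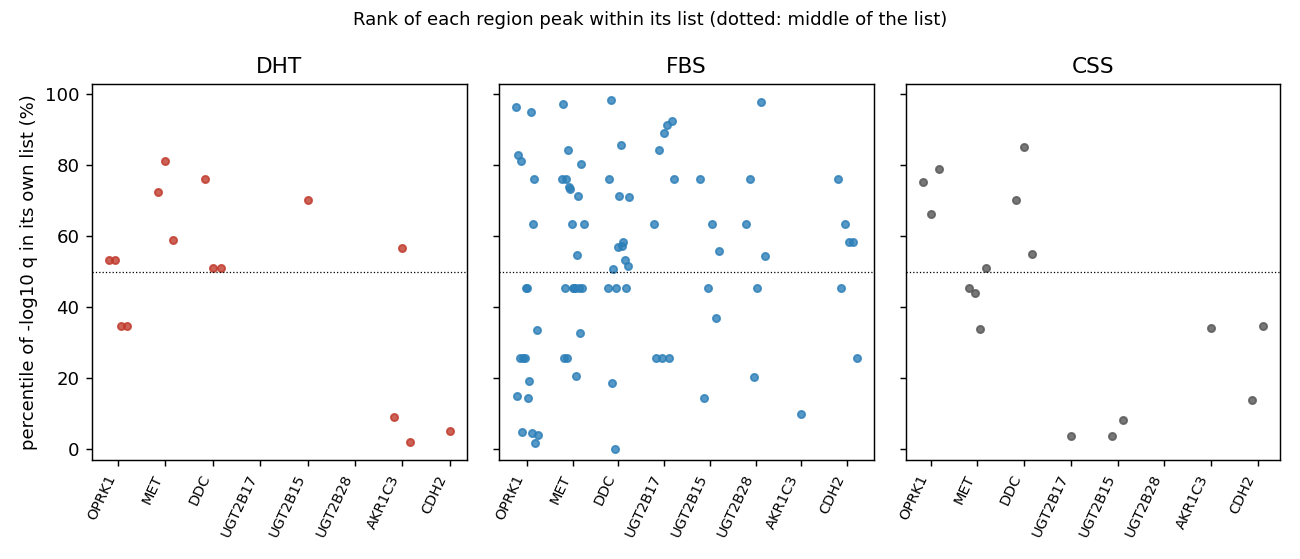
Percentile of the −log10 q of each region peak in its own list, for DHT, FBS and CSS, with the middle of the list dotted and each point a peak. OPRK1, MET and DDC hold most of the points above the middle in DHT and CSS, where no point passes 81.3 in DHT or 85.1 in CSS.

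The peaks at these genes were of middling rank. The median percentile by q-value was 53.3 in DHT, 53.5 in FBS and 45.3 in CSS. A −log10 q of at least 10 was reached by 0 of 15 DHT peaks (0%, exact interval up to 21.8%), 5 of 83 FBS peaks (6.02%, 1.99 to 13.5%) and 0 of 15 CSS peaks (0%, up to 21.8%). Over the whole lists the shares were 11.8%, 4.92% and 14.5%. The 5 FBS peaks were 2 at OPRK1 and 1 each at MET, DDC and UGT2B28. At a −log10 q of at least 5 the counts were 10 of 15 in DHT, 33 of 83 in FBS and 6 of 15 in CSS, against 53.4%, 40.9% and 48.7% of the whole lists. Some q-values recurred among the FBS peaks, here as in the whole list. A −log10 q of 4.26 was held by 14 of the 83 (16.9%, against 10.0% of the FBS list), 3.52 by 9 (10.8%, against 8.90%) and 5.87 by 7 (8.43%, against 4.47%).

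**Figure D5:**
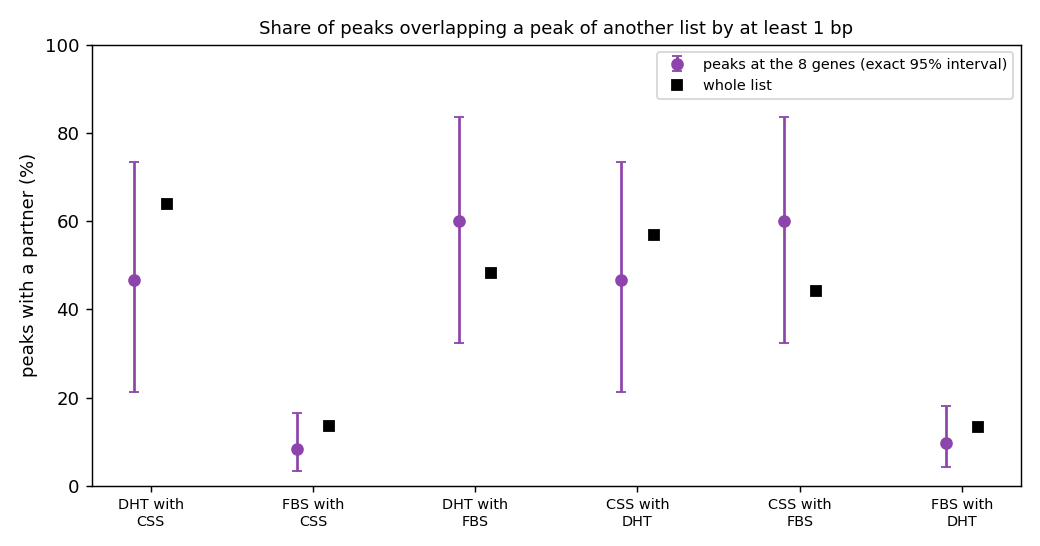
Percentage of peaks that overlap a peak of another list by at least 1 bp, for the peaks at the 8 genes with exact 95% intervals and for the whole list. The whole-list value lies within the interval of the 8 genes for each of the 6 pairs.

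Of the peaks at these genes with DHT or with vehicle, most had a partner somewhere in the other lists, while most peaks in full serum had none. A partner in either other list was present for 11 of 15 DHT peaks (73.3%, 44.9 to 92.2%), 10 of 83 FBS peaks (12.0%, 5.93 to 21.0%) and 11 of 15 CSS peaks (73.3%, 44.9 to 92.2%). Over the whole lists these shares were 77.4%, 17.2% and 69.7%. A CSS partner was present for 7 of 15 DHT peaks (46.7%, 21.3 to 73.4%), against 63.9% of the DHT list. A DHT partner was present for 7 of 15 CSS peaks (46.7%, 21.3 to 73.4%), against 56.8% of the CSS list. An FBS partner was present for 9 of 15 DHT peaks (60.0%, 32.3 to 83.7%), against 48.2% of the list. The same number of CSS peaks, 9 of 15, had an FBS partner, against 44.1%. In the other direction, a DHT partner was found for 8 of 83 FBS peaks (9.64%, 4.25 to 18.1%), against 13.3%, and a CSS partner for 7 (8.43%, 3.46 to 16.6%), against 13.5%. These intervals do not exclude a difference from the whole lists in either direction.

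After overlapping peaks of the 3 lists were merged, the 8 genes held 92 places. All 3 lists had a peak at 4 of them (4.35%, 1.20 to 10.8%), against 7.67% of 151256 places over the genome. These 4 were the starts of OPRK1 and MET and the 2 places at the 3' end of DDC and beyond it. DHT and CSS alone shared 2 places (5.97% of places genome-wide), upstream of MET and of AKR1C3. DHT and FBS alone shared 3 (2.61%), which were 2 upstream of OPRK1 and 1 inside MET. FBS and CSS alone shared 2 (2.69%), inside OPRK1 and at the start of CDH2. Places of a single list numbered 4 in DHT, 73 in FBS and 4 in CSS. Their shares were 4.35% (1.20 to 10.8%), 79.35% (69.6 to 87.1%) and 4.35% (1.20 to 10.8%), against 5.1%, 68.4% and 7.57% genome-wide. Of all the combinations of lists, only FBS alone had an interval that left out the genome-wide share. These intervals treat neighbouring places as independent. The DHT places were 2 at AKR1C3, 1 at UGT2B15 and 1 at the CDH2 start. The CSS places were 1 upstream of MET, 1 at the CDH2 start and 2 at the UGT2B genes.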

How the data were processed

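ZBTB7A ChIP-seq of VCaP cells was represented by 3 narrowPeak lists on hg19, 1 per condition, for 5 libraries. The submitters' processing notes name MACS2 2.0.10.20131216, BWA 0.7.2-r351 and SAMtools 0.1.18. No source used here gives the control, the q threshold, the read filters or how libraries were combined. Fold enrichment, a ratio over background, was deposited by the authors. The −log10 q of each peak and a score derived from it were also deposited by the authors. They rank peaks within a list only, and depth is unknown.

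The gene spans came from the rule of the set. Members, lists and settings were chosen with earlier results of these data known. Named peaks were every DHT and CSS peak, the 3 strongest FBS peaks per region and FBS peaks within 5 kb of a start; peaks carrying the highest value in a list were also named. Strands came from RefSeq promoter windows (GRCh38.p14), and for OPRK1, UGT2B17 and UGT2B28 from general knowledge. Other members of the UGT2B, AKR1C and cadherin families were planned only for the case of an hg19 annotation and were not analysed here. A partner is an overlap of at least 1 bp. Windows for comparison were tiled from the start of each chromosome to its last peak and include assembly gaps. Shares have exact Clopper-Pearson intervals of 95%. Scripts ran in Python 3.11.15 with scipy 1.17.1, pandas 2.3.3, matplotlib 3.10.9 and numpy 2.4.6. Partner calls were checked on simulated data and against bedtools 2.31.1. Coordinates have a first base of 1.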

Additional observations from a re-analysis of the deposited data

How the results depend on the processing

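The counts depend most on the flank and on the strength required. With no flank the 8 genes held 6 DHT, 32 FBS and 5 CSS peaks, and with a flank of 10 kb 9 DHT and 52 FBS peaks. At a −log10 q of at least 5 there were 33 FBS and 6 CSS peaks, and at a fold enrichment of at least 5 there were 32 FBS peaks. With equal numbers of top peaks 23 FBS peaks were left, and 26.7% of the DHT peaks had an FBS partner. Requiring 50% of each peak to overlap left an FBS partner to 20.0% of DHT and 13.3% of CSS peaks, a DHT partner to 3.61% of FBS peaks and a CSS partner to 2.41% of them. With summits within 100 bp the FBS partner was left to 26.7% of DHT and 26.7% of CSS peaks; sharing between DHT and CSS also fell to 26.7% in both directions, within the reported interval. Without OPRK1 and MET, chosen after seeing the data, the FBS density was 43.2 per Mb. These settings remove peaks or overlaps by construction. A reported value with an interval was counted as staying when the alternative lay inside that interval. Any other was counted as staying when the alternative lay within 1.5-fold. Over all alternatives, 61 values for the whole set stayed and 17 moved. For single genes, with few peaks each, 111 stayed and 72 moved. Leaving out the UGT2B regions moved no value for the whole set past these limits. No paired analysis was possible because a single list stands for the numbered libraries of DHT and another for those of CSS, and leaving out a library could not be done. Depth limits the weak peaks, and it is unknown.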
